A study of Mus musculus with 2 samples.

Results

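The genes of cholesterol synthesis and of its control by the transcription factor SREBP2 were examined in mouse cells labelled as primary keratinocytes, the main cell type of the epidermis. Bright markers of other tissues were also found on both arrays. The set holds 29 genes grouped by function: enzymes of the pathway, genes that control SREBP2, and genes that move sterols within and out of the cell. It was chosen with earlier results of these data known. All 29 were matched through the RefSeq accession of their array probes, by 40 of the 55678 probes, and are 29 of the 20144 genes that received a name. RNA was hybridised to 1-colour (Cy3) Agilent arrays, with 1 array for cells labelled Rac3-KO, the control, and 1 for cells labelled Rac1Rac3-DKO. Rac1 and Rac3 are small GTPases that act on the actin cytoskeleton, and both groups lack Rac3 according to the labels. The cell type label reads P3 primary keratinocytes; the labels give no strain, age, sex, Cre driver or number of animals, so how far the deletion is limited to keratinocytes cannot be read from them. With 1 array for each genotype there was no replicate, no test between genotypes was run, and every difference is a description of these arrays.

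Cholesterol is built from acetyl-CoA through mevalonate, isoprenoids and squalene, and cyclised and trimmed from lanosterol onwards. SREBP2 is made as a membrane protein of the endoplasmic reticulum that travels with Scap. When sterols are abundant, Insig proteins hold the Scap complex back; when they are scarce, the complex moves to the Golgi, where proteases encoded by Mbtps1 and Mbtps2 release the active factor, which switches on most genes of the pathway. Oxysterols, which form when cholesterol is plentiful, activate the nuclear receptor LXR, which drives the efflux pumps Abca1 and Abcg1. In epidermis the sterol is a main lipid of the barrier, and keratinocytes make much of it themselves.

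Levels are log2 processed signals minus the array's 75th percentile over non-control probes, and a difference is the DKO-labelled level minus the Rac3-KO level. Signals at that percentile were 705 for Rac3-KO and 354 for the DKO label, 56.9% and 52.9% of probes, respectively, were well above background, and no spot was saturated. The brightest probe of each of the 29 genes was well above background on both arrays, so no member was lost to the filter on dim probes. Errors given after a difference are the scanner software's own signal error on the log2 scale; they are technical and hold no variation between animals or cultures. Spike-in RNAs were 1.06 (log2) brighter on the DKO-labelled array. On the spike-in scale the median gene differed by -2.06, and all 29 members lay below 0, so every direction below is relative to the 75th percentile. Rac1 was not lower under the DKO label (0.28 ± 0.20), and Rac3, labelled as deleted in both groups, had processed signals of 99.8 and 59.1 beside lowest detected signals of 23.4 and 20.1. These probes therefore do not show the labelled deletions; where they lie relative to the deleted parts was not determined.

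Most genes of cholesterol synthesis were lower on the DKO-labelled array, whereas the sterol efflux genes were higher. Of the 29 members 12 (41.4%) were at least 2-fold lower, beside 6.62% of all 14145 genes measured on both arrays, and 1 was at least 2-fold higher, beside 7.71%. Because the members were chosen with earlier results of these data known, these shares only describe the set. The lower members were 10 of the 18 synthesis enzymes, Stard4, a sterol carrier, and Srebf2 itself, the last only at its brighter probe (-0.30 at the dimmer). The median difference was -0.71 over the members and -1.15 over the synthesis enzymes, against -0.01 over all measured genes. Over those genes 53.8% of the ones at least 2-fold apart were higher, or 43.6% when arrays were scaled to their median and 0.106% with spike-in scaling. The arrays also differed in cell type markers, whose part in these results was not tested. Markers of basal keratinocytes had a median difference of -1.50, and 16 of the 18 enzymes and 26 of the 29 members lay above that value. So did 13787 of all 14145 measured genes, so lying above it does not set the members apart. In such bulk RNA, fewer cells of a type and less RNA per cell cannot be told apart.

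**Figure D1:**
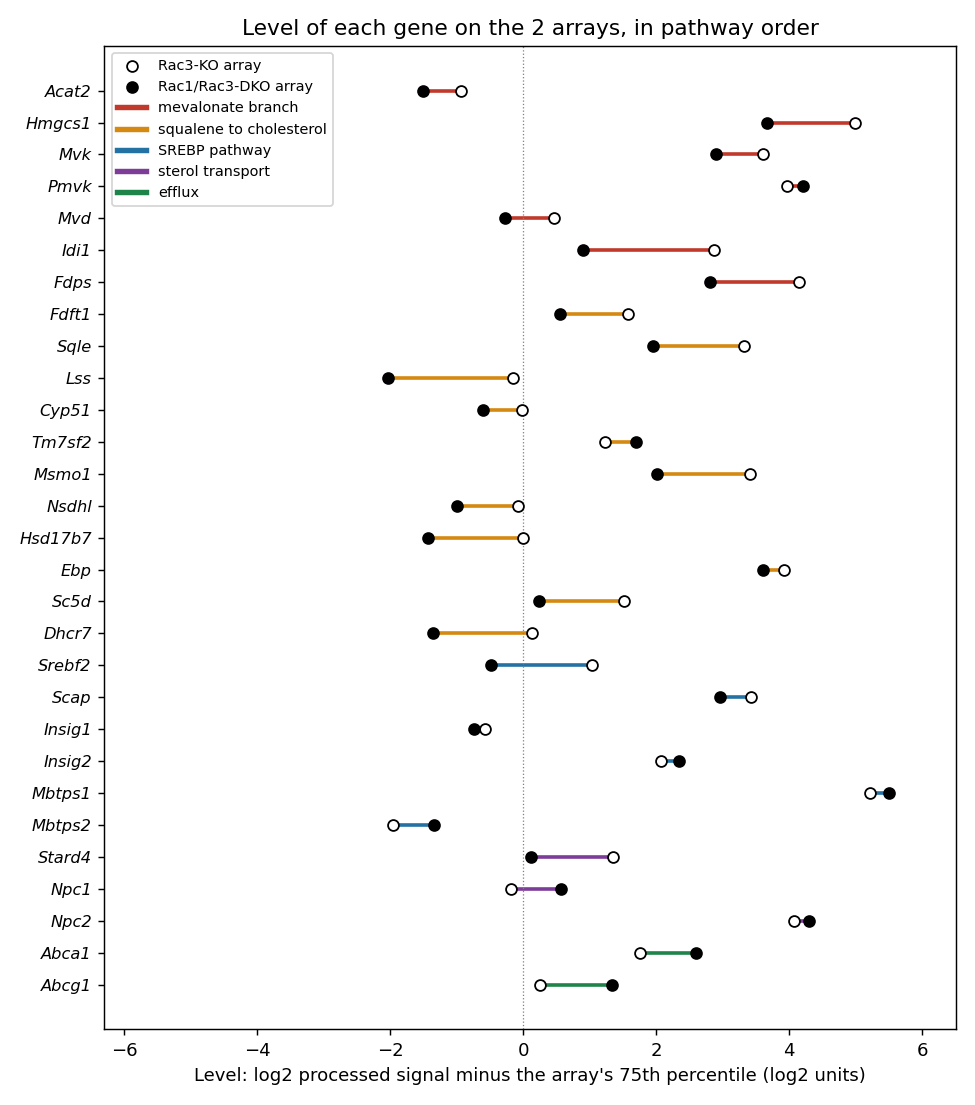
Level of each of the 29 genes for Rac3-KO (open circles) and for the DKO label (filled circles), as log2 processed signal minus the array's 75th percentile. Rows follow the pathway and line colours give the role; positions should be compared only within a row, since probes differ in brightness. The filled circle lies to the left for 20 genes and to the right for 9; on the spike-in scale it would lie to the left for all 29.

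The mevalonate branch was lower at most steps, by amounts that differed from step to step. Its 7 enzymes had a median difference of -0.74. At least 2-fold lower were 3 of them (42.9%), beside 6.62% of all measured genes, and none reached 2-fold higher, beside 7.71%. Acat2, which joins acetyl-CoA units at the entry, had a level of -0.94 for Rac3-KO and -1.50 for the DKO label, a difference of -0.56 ± 0.21. Hmgcs1, the synthase that makes HMG-CoA, stood at 4.99 and 3.66, which is 2.51-fold lower.

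The next steps phosphorylate mevalonate and remove a carboxyl group, and they differed less. Mvk, the mevalonate kinase, had levels of 3.60 and 2.89, a difference of -0.71 ± 0.20, and a further probe gave -0.74. Mvd, the decarboxylase, stood at 0.47 and -0.27, a difference of -0.74 ± 0.21. Pmvk, the phosphomevalonate kinase between them, was the exception of the branch: it stood at 3.97 and 4.20, a difference of 0.23 ± 0.20, and its further probe gave 0.002. It was thus close to equal on the arrays while its neighbours on either side were lower.

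The isoprenoid steps at the end of the branch were again more than 2-fold lower. Idi1, the isomerase that makes the reactive isoprene unit, had levels of 2.87 and 0.89 and was 3.94-fold lower, the lowest difference among the 29 members. Only 0.997% of measured genes had a difference as low or lower. Fdps, which joins isoprene units into farnesyl diphosphate, stood at 4.15 and 2.81, or 2.53-fold lower.

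From squalene onwards the enzymes were lower still by their median, but not by their summed signal. Their median difference was -1.27, beside -0.74 for the mevalonate branch. The summed signal relative to the 75th percentile, DKO label over Rac3-KO, was 0.560 for the mevalonate branch and 0.577 for these enzymes. At least 2-fold lower were 7 of the 11 genes (63.6%), beside 6.62% of all measured genes, and none reached 2-fold higher, beside 7.71%. Fdft1, the squalene synthase, had levels of 1.58 and 0.55 and was 2.04-fold lower, just past the 2-fold threshold; its other probe was not well above background on either array. Sqle, the squalene epoxidase, stood at 3.31 and 1.95, or 2.57-fold lower. Lss, which closes the rings to give lanosterol, stood at -0.15 and -2.04, or 3.69-fold lower, the second lowest difference of the set. The entry into sterols was therefore lower at each of its 3 enzymes on these arrays.

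Trimming of lanosterol involves removal of methyl groups, and its enzymes were mixed. Cyp51, the lanosterol demethylase, had levels of -0.01 and -0.60, a difference of -0.59 ± 0.21. Msmo1, the methylsterol oxidase, stood at 3.41 and 2.01 and was 2.64-fold lower. Hsd17b7, the keto-reductase of the same demethylation complex, stood at -0.01 and -1.43, or 2.68-fold lower, and a further probe gave a difference of -1.14. The dehydrogenase of this complex, Nsdhl, had discordant probes. Its brighter probe gave levels of -0.08 and -0.999, a difference of -0.92 ± 0.21, while the dimmer gave 0.20, so its direction rests on the choice of probe. Tm7sf2, a sterol reductase, was the only enzyme after squalene with a difference above 0: it stood at 1.22 and 1.70, a difference of 0.48 ± 0.20, with 0.37 at its further probe.

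The last steps rearrange the double bonds of the rings. Ebp, the sterol isomerase, had levels of 3.92 and 3.61, a difference of -0.31 ± 0.20. Sc5d, the desaturase that follows, stood at 1.51 and 0.24, or 2.41-fold lower. Dhcr7, the reductase that turns the vitamin D precursor into cholesterol, stood at 0.13 and -1.35, or 2.79-fold lower. The enzymes that did not reach a 2-fold difference thus lay at several points of the pathway, not at 1 end of it.

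**Figure D2:**
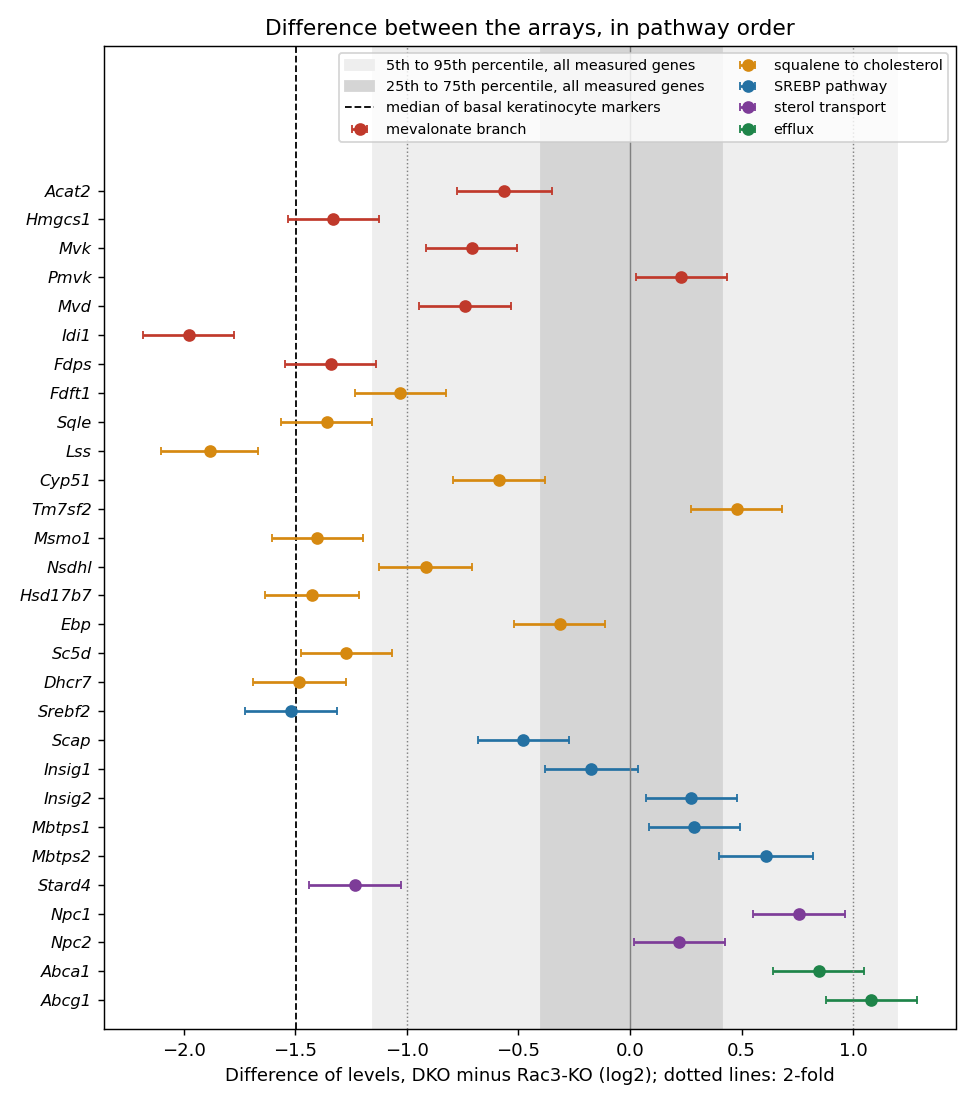
Difference of each gene between the arrays (DKO-labelled minus Rac3-KO, log2) in pathway order; bars are the software's signal error, which is technical. Grey bands span the 25th to 75th percentile (-0.40 to 0.41) and the 5th to 95th percentile (-1.15 to 1.20) of all measured genes, dotted lines mark 2-fold, and the dashed line is the basal keratinocyte median of -1.50. Idi1 and Lss lie furthest left and Abcg1 furthest right; spike-in scaling would move every point, and the bands, by -2.05.

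The genes that control SREBP2 did not share a direction. Their median difference was 0.05. Only 1 of the 6 genes (16.7%) was at least 2-fold lower, beside 6.62% of all measured genes, and none reached 2-fold higher, beside 7.71%. Srebf2, the gene of the factor itself, which also binds its own promoter, had levels of 1.03 and -0.49 and was 2.87-fold lower at its brighter probe. Its dimmer probe, also well above background on both arrays, differed by only -0.30, and with the mean of both probes Srebf2 stood at -0.91 and was no longer 2-fold lower. Scap, the escort protein, stood at 3.43 and 2.95, a difference of -0.48 ± 0.20.

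The Insig genes act as the brake on this transport. Insig1, which holds back Scap and is itself an SREBP target, had levels of -0.57 and -0.75, a difference of -0.17 ± 0.21. That is within the software's error, and 38.3% of measured genes lay at or below it. Among the synthesis enzymes that share ranged from 0.997% for Idi1 to 77.8% for Tm7sf2, with Ebp at 29.5% and Pmvk at 65.3%, so some enzymes lay close to Insig1 or above it. Insig2, the paralog, stood at 2.06 and 2.34, a difference of 0.28 ± 0.20, with 0.13 at its further probe. Both Insig genes thus lay above the median of the synthesis enzymes, -1.15, and neither reached a 2-fold difference; the difference from the enzymes was not tested.

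Both protease genes had differences above 0. Mbtps1, which makes the first cut in SREBP2, stood at 5.21 and 5.50, a difference of 0.29 ± 0.20, and its further probe gave 0.33. With normexp background correction its difference was 0.0008, so its direction is not settled. Mbtps2, which makes the cut within the membrane, stood at -1.96 and -1.35, a difference of 0.61 ± 0.21; its dimmer probe, at background under the DKO label, gave -0.14.

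Genes of sterol transport and efflux went both ways. Stard4, a soluble carrier that brings sterol to the endoplasmic reticulum and is an SREBP2 target, had levels of 1.35 and 0.12 and was 2.35-fold lower, with a difference of -1.42 at its further probe. Npc1, the lysosomal membrane protein that exports cholesterol from endosomes, stood at -0.19 and 0.57, a difference of 0.76 ± 0.20. Npc2, its soluble partner, stood at 4.07 and 4.29, a difference of 0.22 ± 0.20, which was -0.01 with normexp background correction. Stard4 was thus lower, as most of the enzymes were, while Npc1 and Npc2 had differences above 0 as reported. What lies behind this split was not tested.

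The efflux pumps had the highest differences of the set. Abca1, which loads cholesterol onto apolipoprotein, had levels of 1.76 and 2.60, a difference of 0.85 ± 0.20 or 1.80-fold. Abcg1, which passes it on to mature lipoprotein, stood at 0.26 and 1.34 and was 2.12-fold higher, the only member at least 2-fold higher. With normexp it differed by 0.86 and with median scaling by 0.99, so it then fell short of 2-fold, and with spike-in scaling it differed by -0.97. Macrophages also use these pumps, and the leukocyte markers beside them were higher by a median of 0.97 on the same arrays. Of these markers 11 of 11 measured lay above 0, beside 6995 of all 14145 measured genes. That was not particular to leukocytes: 10 of 10 endothelial, 11 of 12 fibroblast, 8 of 9 adipocyte and 13 of 14 muscle markers also lay above 0. Most keratinocyte and melanocyte markers lay below 0. The part of cell types in the pump levels was not tested.

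Promoters of the members are shown because the lower enzymes are known targets of SREBP2, which binds sterol regulatory elements beside NF-Y and Sp1. RefSeq promoters of build GRCm38.p6 were found for 23 of the 29 members; Fdps, Fdft1, Sqle, Stard4, Npc1 and Abcg1 had no entry. The 250 bases before the start were searched on both strands for TCACCCCAC (sterol regulatory element), its looser form TCACNCCAC, which includes the former, CCAAT (NF-Y), GGGCGG (Sp1) and CACGTG (E-box). The 150 bases before the start follow, 5′ to 3′ on the gene's strand, with all matches on either strand in capitals. The first 8 belong to the members that were at least 2-fold lower and had an entry (for Dhcr7 the last of its 3 starts), and Tm7sf2 and Insig1, which were not, are added for contrast and were chosen after their values were seen.
Hmgcs1, chr13:119690201-119690350, plus strand: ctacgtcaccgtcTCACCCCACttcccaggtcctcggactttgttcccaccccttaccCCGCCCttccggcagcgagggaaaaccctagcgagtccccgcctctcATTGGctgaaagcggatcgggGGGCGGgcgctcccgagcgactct
Idi1, chr13:8885456-8885605, plus strand: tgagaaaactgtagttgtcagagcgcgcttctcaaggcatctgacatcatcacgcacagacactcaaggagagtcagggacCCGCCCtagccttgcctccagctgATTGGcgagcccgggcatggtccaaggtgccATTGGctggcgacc
Lss, chr10:76531455-76531604, plus strand: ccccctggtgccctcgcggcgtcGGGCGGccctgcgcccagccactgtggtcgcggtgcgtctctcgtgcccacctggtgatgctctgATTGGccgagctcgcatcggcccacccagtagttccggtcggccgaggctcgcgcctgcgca
Msmo1, chr8:64733579-64733728, minus strand: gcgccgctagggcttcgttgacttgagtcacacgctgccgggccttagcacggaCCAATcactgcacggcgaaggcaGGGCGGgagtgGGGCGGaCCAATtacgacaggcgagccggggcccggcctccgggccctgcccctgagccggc
Hsd17b7, chr1:169969206-169969355, minus strand: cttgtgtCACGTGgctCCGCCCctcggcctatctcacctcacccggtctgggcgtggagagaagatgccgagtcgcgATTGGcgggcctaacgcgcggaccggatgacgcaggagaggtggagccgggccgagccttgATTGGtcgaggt
Sc5d, chr9:42264301-42264450, minus strand: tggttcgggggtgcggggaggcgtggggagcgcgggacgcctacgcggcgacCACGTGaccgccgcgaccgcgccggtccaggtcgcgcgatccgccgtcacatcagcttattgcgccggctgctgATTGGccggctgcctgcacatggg
Dhcr7, chr7:143830064-143830213, plus strand: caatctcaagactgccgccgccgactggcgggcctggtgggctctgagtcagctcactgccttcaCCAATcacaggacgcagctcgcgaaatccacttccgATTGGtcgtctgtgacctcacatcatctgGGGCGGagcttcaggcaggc
Srebf2, chr15:82147119-82147268, plus strand: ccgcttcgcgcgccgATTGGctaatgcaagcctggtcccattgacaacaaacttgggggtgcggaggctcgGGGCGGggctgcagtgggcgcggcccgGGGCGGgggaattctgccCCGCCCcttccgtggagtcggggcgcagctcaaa
Tm7sf2, chr19:6067851-6068000, minus strand: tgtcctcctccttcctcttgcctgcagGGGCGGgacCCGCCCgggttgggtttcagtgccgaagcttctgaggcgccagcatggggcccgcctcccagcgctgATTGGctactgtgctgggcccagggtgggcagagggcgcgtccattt
Insig1, chr5:28071262-28071411, plus strand: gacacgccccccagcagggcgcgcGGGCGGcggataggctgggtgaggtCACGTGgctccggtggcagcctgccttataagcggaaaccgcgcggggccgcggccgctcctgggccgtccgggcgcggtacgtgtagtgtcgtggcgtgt

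The NF-Y box CCAAT was present before the start of 14 of the 15 synthesis enzymes with an entry and of 18 of the 23 members (78.3%), compared with 37.5% of 27025 genes with a promoter and 40.0% of the 11202 among them measured on both arrays. The Sp1 box was present in 21 members (91.3%), beside 35.4% of all promoters and 60.8% of those of measured genes. All 8 of the lower members with an entry held both boxes at 1 start or more, as did Tm7sf2 and Insig1, so these boxes did not separate lower members from the others: of the 15 remaining members 10 held CCAAT and 13 held GGGCGG. Hmgcs1 was the only member with TCACCCCAC, which begins at position -137 from its start; 0.555% of all promoters held it and 0.625% of those of measured genes, and the looser form was in 1.22% and 1.24%. CACGTG was found in 6 members (26.1%), in 6.86% of all promoters and in 9.55% of those of measured genes. For Dhcr7 CCAAT was found only at the start shown, while its first start held GGGCGG and no CCAAT and its middle start held neither. Some matches lie before the stretch shown, such as CCAAT of Insig1 at position -216 and both GGGCGG matches of Sc5d. A match is a description of the letters and not of binding, and genes with several starts had more bases searched.

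Other genes of sterol biology, outside the 29, did not as a list share the shift of the synthesis enzymes, with 11 below 0 and 12 above. Of 25 such genes 23 were measured, with a median difference of 0.09. Among them 2 (8.70%) reached 2-fold lower, close to the 6.62% of all measured genes, and none 2-fold higher, beside 7.71%. Sult2b1, the sulfotransferase that makes cholesterol sulfate in the epidermis, stood at 1.88 and -0.09 and was 3.92-fold lower. Ch25h, which hydroxylates cholesterol to an oxysterol, stood at -0.76 and -2.26, or 2.83-fold lower. Further genes of the pathway, picked after their values were seen, differed by less: the sterol reductase gene Lbr by -0.59, and Erg28, which holds the demethylation complex together, by -0.58. Both were thus lower by about as much as the member enzymes Cyp51 (-0.59) and Acat2 (-0.56). The LXR genes Nr1h2 and Nr1h3, likewise picked afterwards, differed by 0.13 and 0.44, and the LXR target Mylip by 0.09.

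Fatty acid synthesis, the lipid pathway most like it in control, went in both directions. The median difference of its 21 measured genes was 0.13. Of these, 2 (9.52%) reached 2-fold lower, beside 6.62% of all measured genes, and 4 (19.0%) reached 2-fold higher, beside 7.71%. The elongase genes Elovl6 and Elovl7 differed by -1.72 and -1.70. Lpin1, a phosphatidate phosphatase, differed by 1.88, the desaturase gene Scd1 by 1.53, the lipogenic regulator Thrsp by 1.12 and the carboxylase gene Acacb by 1.04. The enzymes of cholesterol synthesis had a median of -1.15 beside this, but the difference between the lists was not tested.

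**Figure D3:**
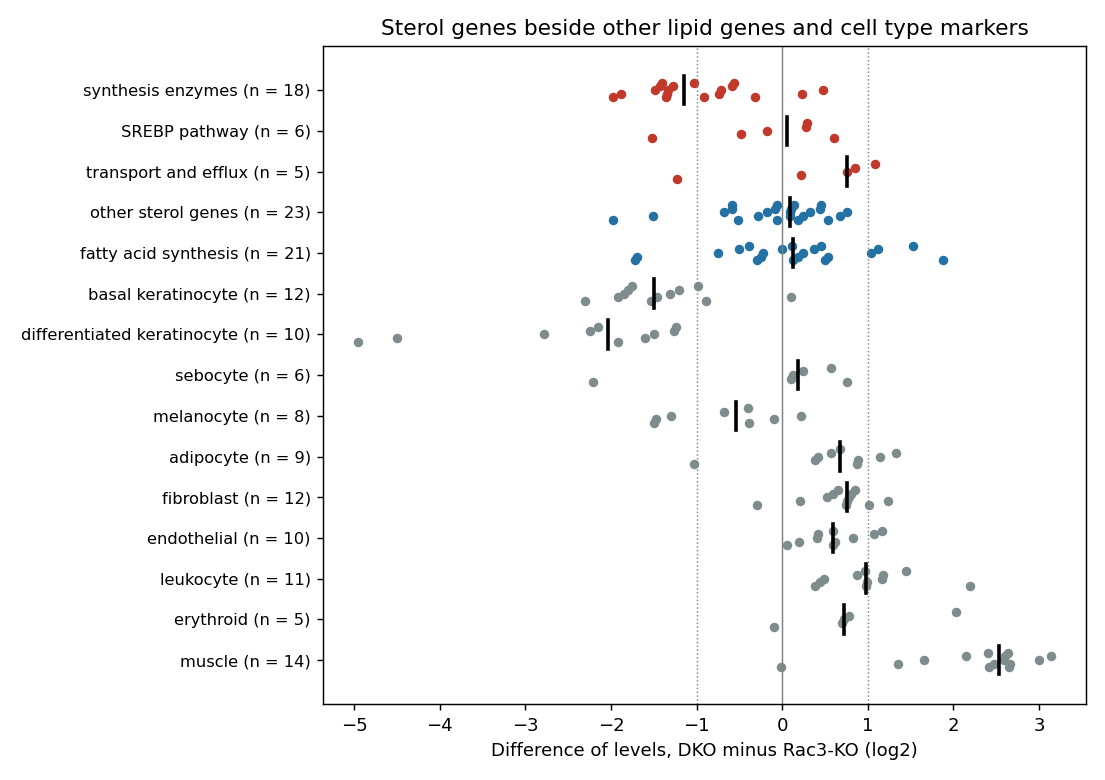
Difference between the arrays (DKO-labelled minus Rac3-KO, log2) of each measured gene in the sterol groups (red), in related lipid lists (blue) and in lists of cell type markers (grey); black bars are medians and dotted lines mark 2-fold. The synthesis enzymes (median -1.15) lie between the keratinocyte markers (-1.50 and -2.04) and the lists of other lipid genes (0.09 and 0.13), while muscle markers have a median of 2.53; spike-in scaling would move every point by -2.05.

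Markers of keratinocytes and of other cells moved with these results, and their part was not tested. All 12 basal keratinocyte markers were measured, and 9 (75%) were at least 2-fold lower, beside 6.62% of all measured genes. The summed signal of the 12, relative to the 75th percentile, was 686 for Rac3-KO and 252 for the DKO label. The corresponding sums were 324 and 32.7 for 10 measured markers of differentiated keratinocytes, 135 and 76.7 for the 18 synthesis enzymes, and 94.8 and 47.1 for 8 melanocyte markers. They were 460 and 2522 for 14 muscle markers, 1700 and 2922 for 12 of fibroblasts, 193 and 287 for 9 of adipocytes, and 51.2 and 116 for 11 of leukocytes. Endothelial markers gave 43.7 and 69.5 over 10 genes, and erythroid markers 744 and 1177 over 5. Of 10 sebocyte markers 6 were measured, with a median of 0.19, and 5 of them lay above 0, beside 6995 of all 14145 measured genes. The remaining measured marker, Elovl3, picked after its value was seen, differed by -2.21. The wax ester synthase genes Awat1 and Awat2 did not stand well above background under the DKO label. The brightest markers differed by -1.20 for Krt5 and -2.31 for Krt15 (basal), -4.50 for Krt10 and -1.92 for Krtdap (differentiated), -1.50 for Dct and -0.68 for Pmel (melanocyte), and 0.24 for Mgst1 and 0.57 for Pparg (sebocyte). Those of other tissues differed by 2.40 for Tnnc2 and 2.66 for Tnni2 (muscle), 0.85 for Col1a2 and 0.79 for Col3a1 (fibroblast), 0.38 for Fabp4 and 0.88 for Cfd (adipocyte), 1.45 for Csf1r and 1.16 for Itgam (leukocyte), 0.42 for Egfl7 and 1.17 for Kdr (endothelial), and 0.72 for Hba-a1 and -0.10 for Hemgn (erythroid). The cells labelled as keratinocytes thus carried bright markers of other tissues on both arrays.

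Technical precision within the arrays was examined on the members' own probes. Of the 29 genes 9 had 2 probes well above background on both arrays. The log2 differences of these pairs lay 0.03 apart for Mvk, 0.04 for Mbtps1, 0.11 for Tm7sf2, 0.14 for Insig2, 0.18 for Stard4, 0.23 for Pmvk and 0.28 for Hsd17b7, but 1.12 for Nsdhl and 1.22 for Srebf2. No member probe was spotted repeatedly; over 276 other probes with at least 8 spots, the SD of the difference between spots had a median of 0.09.

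**Figure D4:**
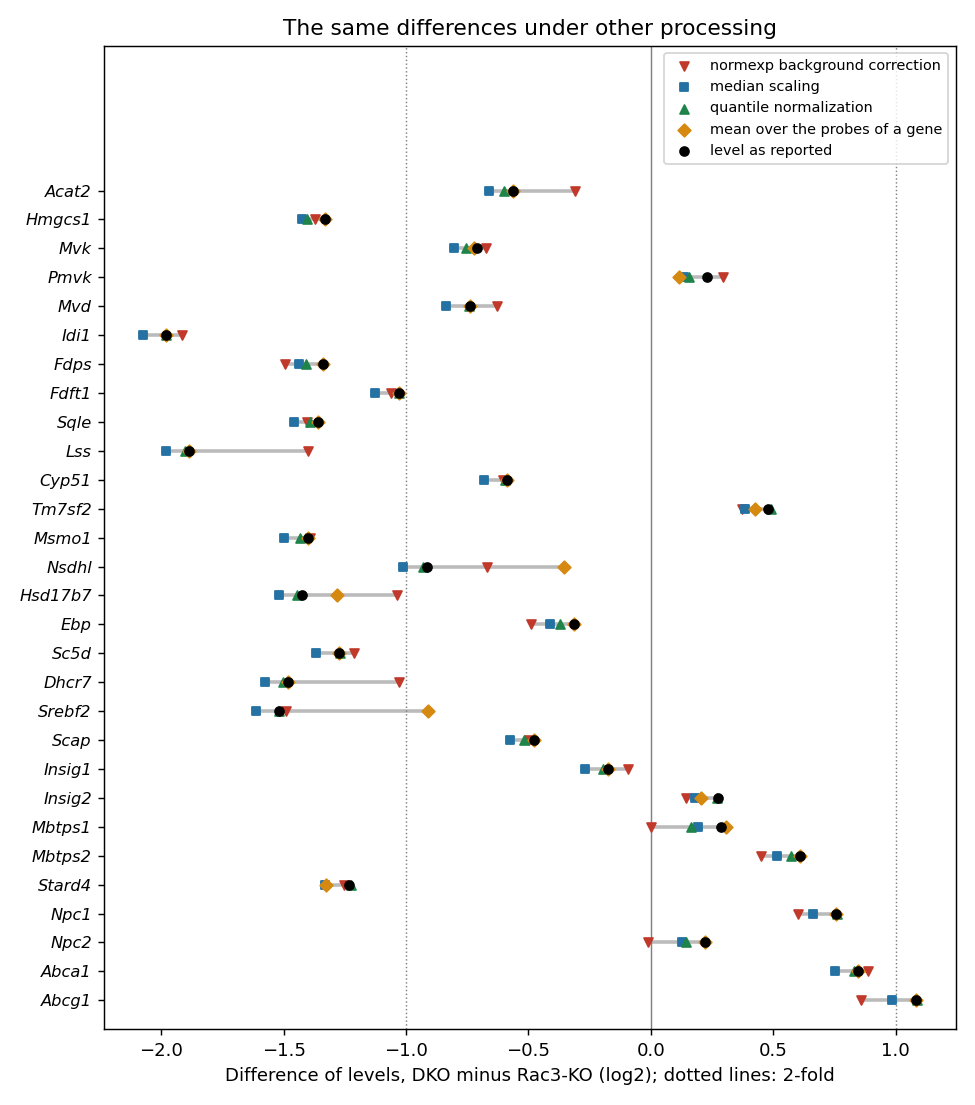
Difference of each gene between the arrays (DKO-labelled minus Rac3-KO, log2) as reported (black circles), with normexp background correction, with median scaling, with quantile normalization and averaged over the probes of each gene; grey lines join the lowest and highest of these values. The widest ranges belong to Srebf2 (-1.61 to -0.91), Nsdhl (-1.01 to -0.36) and Lss (-1.98 to -1.40). Spike-in scaling, which is not drawn, puts all 29 genes below 0.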

How the data were processed

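RNA of the cells was hybridised to 1 array for each genotype label. The deposited scanner files hold spot intensity, extracted with Agilent Feature Extraction 10.10.1.1, with background subtraction and detrending within each array and no scaling between arrays, per the file headers, although version 9.1 is the one in the submitters' processing notes. The value table deposited by the authors holds log2 values that, for 100% of the probes with 1 spot, are the log2 processed signals less 9.46 (Rac3-KO) and 8.47 (DKO), within 0.001; its column medians are -3.72 (Rac3-KO) and -3.62 (DKO).

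Control spots and spots marked as outliers (155 and 190; 0 of them a member's) were left out, spots of a probe were averaged, and each array's 75th percentile was subtracted. Accessions were matched without versions to the GRCm38.p6 RefSeq gene table, used for names only; 26580 probes received a gene name and 29098 did not. A gene was represented by its brightest probe and counted as measured when both arrays had that probe well above background. Scripts were tested on simulated data. Python 3.11.15, pandas 2.3.3, R 4.3.3 and limma 3.58.1 (normexp with an offset of 50 on median spot and background signals; mean spot signals were not used here) were employed.

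Counts used a threshold of 2-fold. The members and lists were chosen with earlier results of these data known. Named genes were all members, the other sterol and fatty acid genes at least 2-fold apart (at most 4 each way), the 2 brightest markers of each list and the genes said to be picked later. An alternative value was taken as moved when it lay further from the reported value than the software's signal error or, for a median, than the median of that error over the members. The value of 1 gene among the other sterol genes is not reported here.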

Additional observations from a re-analysis of the deposited data

How the results depend on the processing

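No paired analysis was possible because each genotype had 1 array, and for the same reason no array could be left out. Spike-in scaling moved every summary: 28 members at least 2-fold lower and 0 higher, medians of -2.76 (members), -3.21 (synthesis enzymes), -2.80 (mevalonate), -3.33 (sterol enzymes) and -2.004 (SREBP pathway), 93.1% of all measured genes at least 2-fold lower, and -0.97 in place of 1.08 for Abcg1. The members' median minus that of all genes was -0.70 both on that scale and as reported. This equality was fixed in advance, because spike-in scaling shifts every gene by the same constant, so it is no support. The number of members at least 2-fold higher was 1 as reported, 0 with normexp and with median scaling, 4 at a threshold of 1.5-fold and 0 at 3-fold. The share of all measured genes higher was 7.71% as reported, 5.43% with normexp and 6.30% with median scaling. It was 18.2% at 1.5-fold and 2.29% at 3-fold. At 3-fold 2 members (Idi1 and Lss) were lower, and at 1.5-fold 16; the share of all genes lower was 2.23% and 16.5%. With normexp the median of the sterol enzymes was -1.04 in place of -1.27. Of 86 values of these summaries under the alternatives run, 70 stayed within the error or within 1.5 times the count, among them those from the deposited value table, quantile normalization, the mean over a gene's probes (11 members lower), flagged spots kept, and both other filters on dim probes. Apart from spike-in scaling, the difference of 28 members kept its sign under all 9 alternatives, Npc2 (-0.01 with normexp) being the exception. Several of these alternatives could hardly move a member, so their agreement is no support. No member spot was flagged, every member passed each filter on dim probes, and the deposited values are the same signals less a constant for each array. The summaries from these alternatives are also among the 70. Of 290 values of single members, spike-in scaling included, 251 stayed within the error, among them all those from these alternatives. Of the rest 38 moved, and 1 went from at least 2-fold higher to below 0 (Abcg1 with spike-in scaling). Nsdhl, Srebf2 and Abcg1 changed side of the 2-fold threshold. Signal over background limits dim probes such as that of Lss, whose DKO-labelled signal was 86.5 beside a lowest detected signal of 20.1.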
